A study of Mus musculus with 9 samples.

Results

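The extrachromosomal circular DNAs (eccDNAs, below called circles) of mouse chromosome 7 were taken from heart libraries in which circular DNA had been sequenced. They are all distinct circles that the deposited table places on chromosome 7, 7625 of the 149584 circles found over 9 libraries, with 136134 on the other autosomes. Chromosome 7 was chosen by 2 measured values, its number of genes and its number of circles per Mb. It carried 2030 RefSeq protein-coding genes, the most of any chromosome, at 13.97 genes per Mb against 13.2 on chromosome 11. It had 52.5 distinct circles per Mb, the lowest of the 19 autosomes. Chromosome 14, the next lowest, had 54.7 circles per Mb, the other autosomes together had 58.8, and the X chromosome, which is no autosome, had 33.9. These densities chose the chromosome, so they are given as a description with no test.

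The libraries came from hearts of wild-type C57BL/6J mice at 3 stages, with 3 libraries labelled as biological replicates at each: embryonic hearts labelled E18, neonatal hearts labelled 3d and adult hearts labelled 8w. Heart is the labelled tissue and cardiocytes the labelled cells, and a table of DNA circles holds no markers of cell type against which this could be checked. Circle-seq digests linear DNA, copies the remaining circles by rolling-circle amplification and sequences the product, and a read that spans the point where a circle closes (a split read) identifies it. Whether hearts were pooled within a library is not stated.

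Small circles of chromosomal DNA are found in many healthy tissues. Most are too short to carry a whole gene, and their lengths follow the DNA wrapped around nucleosomes, the protein spools that package chromosomes. Chromosome 7 of the mouse is known for long tandem clusters of receptor, zinc finger, kallikrein and Ceacam genes, for the imprinted domains around Snrpn and around Igf2 and Kcnq1, and for very long neuronal genes such as Dlg2 and Tenm4.

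The sequences below are examples of small circles at gene starts, and they were not drawn to represent all circles of this chromosome. RefSeq windows around gene starts (250 bases before to 50 after, build GRCm38.p6) were the only chromosome 7 sequence used, and 5 circles lay wholly inside such a window. The circle over the start of Utf1 is added because it was found in 4 libraries, more than any other circle of at most 100 kb touching a window. Each line gives the 250 bases before the gene start, 5′ to 3′ on the gene's strand, with the bases that belong to the circle in capitals.
Galp: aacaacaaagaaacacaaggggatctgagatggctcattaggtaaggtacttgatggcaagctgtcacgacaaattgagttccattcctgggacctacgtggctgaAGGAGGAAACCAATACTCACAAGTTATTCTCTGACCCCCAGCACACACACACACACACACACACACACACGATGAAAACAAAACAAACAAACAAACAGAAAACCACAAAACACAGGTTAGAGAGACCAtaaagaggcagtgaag
Pglyrp1: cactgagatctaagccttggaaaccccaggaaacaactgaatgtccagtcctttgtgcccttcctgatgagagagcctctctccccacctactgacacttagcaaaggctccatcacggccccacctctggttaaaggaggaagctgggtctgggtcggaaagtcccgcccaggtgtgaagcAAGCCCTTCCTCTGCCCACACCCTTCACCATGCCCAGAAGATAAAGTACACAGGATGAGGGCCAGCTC
Olfr298: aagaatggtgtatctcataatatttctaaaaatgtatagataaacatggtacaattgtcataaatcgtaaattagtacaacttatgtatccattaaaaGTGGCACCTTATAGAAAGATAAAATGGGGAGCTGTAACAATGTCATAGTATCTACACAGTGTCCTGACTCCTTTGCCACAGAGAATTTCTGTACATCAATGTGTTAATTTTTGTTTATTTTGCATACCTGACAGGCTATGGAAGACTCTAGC
Gm39068: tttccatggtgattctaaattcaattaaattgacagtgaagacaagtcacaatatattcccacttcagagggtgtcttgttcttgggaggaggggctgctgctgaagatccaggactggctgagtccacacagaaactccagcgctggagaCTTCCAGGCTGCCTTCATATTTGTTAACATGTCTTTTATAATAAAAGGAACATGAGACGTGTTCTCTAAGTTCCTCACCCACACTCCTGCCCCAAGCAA
Sec23ip: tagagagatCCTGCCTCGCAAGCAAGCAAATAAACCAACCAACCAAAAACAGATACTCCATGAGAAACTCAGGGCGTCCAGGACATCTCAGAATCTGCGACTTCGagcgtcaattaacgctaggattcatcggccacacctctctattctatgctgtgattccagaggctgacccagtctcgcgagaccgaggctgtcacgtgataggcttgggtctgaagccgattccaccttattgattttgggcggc
Utf1: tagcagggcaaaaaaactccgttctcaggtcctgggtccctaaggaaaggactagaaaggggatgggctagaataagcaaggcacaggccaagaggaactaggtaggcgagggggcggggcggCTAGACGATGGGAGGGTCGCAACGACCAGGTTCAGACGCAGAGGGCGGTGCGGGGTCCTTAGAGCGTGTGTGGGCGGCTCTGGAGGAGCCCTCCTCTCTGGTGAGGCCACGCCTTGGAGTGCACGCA

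Galp encodes galanin-like peptide, and its 128 bp circle (chr7:6196946-6197073, plus strand gene) had 18 split reads in 8w replicate 3. Pglyrp1 encodes a secreted peptidoglycan-binding protein of innate immunity, and its 97 bp circle (chr7:18884622-18884718, plus strand gene) had 24 reads in 8w replicate 2 and ran 29 bases past the gene start. The 202 bp circle at the odorant receptor gene Olfr298 (chr7:86489500-86489701, minus strand gene) had 9 reads in 3d replicate 2 and ran 50 bases past the start. The predicted gene Gm39068 had a 101 bp circle (chr7:110739562-110739662, plus strand gene) with 15 reads in 3d replicate 2, which ran 2 bases past the start. Sec23ip encodes a partner of the vesicle coat protein Sec23, and its 96 bp circle (chr7:128744629-128744724, plus strand gene) had 29 reads in 8w replicate 2. Each of these 5 circles was found in 1 library.

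Utf1 encodes a chromatin-associated transcription factor of embryonic stem cells. Its circle (354 bp, chr7:139943729-139944082, plus strand gene) covered the gene start, and only 127 of its bases are printed above. The circle had 1 split read in E18 replicate 1, 4 in 3d replicate 1, 5 in 3d replicate 2 and 1 in 8w replicate 2. It was thus seen at all 3 stages, on 11 reads in all. GC content of the 5 whole circles ran from 40.1% (Olfr298) to 57.7% (Pglyrp1). In Galp and Pglyrp1 the last base of the circle matched the base just before the circle. No other match between circle ends and flanks was found in the windows. The Olfr298 circle reaches the edge of its window, so its flank on that side could not be compared.

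Circles at gene starts were a small part of all circles, as the windows are a small part of the chromosome. Of 7619 circles of at most 100 kb, 71 (0.932%) touched 1 or more of the 2790 windows on chromosome 7. Of these 71, 46 covered a start site. The windows cover 0.529% of chromosome 7, and any overlap counted as a touch. Whether gene starts hold more or fewer circles than other sequence was not tested. They touched 79 windows (2.83%) of 73 genes, and 60 of the 71 were found in 1 library. The share of chromosome 7 circles touching a window was highest in E18 replicate 2 (1.36%, 6 circles). No circle touched a window in E18 replicate 3, where 0 of 576 allows a share of up to 0.521%, or in 8w replicate 1, where 0 of 215 allows up to 1.40%. Touched windows had a median GC content of 50% against 52.3% over all chromosome 7 windows, and a median of 4 CG pairs against 6. The GC box GGGCGG, searched on both strands, was in 24.1% of touched windows, in 34.4% of chromosome 7 windows and in 35.7% of 32851 windows of the genome. TATAAA was in 16.5%, 15.2% and 13.6% of these, and CCAAT in 36.7%, 40.0% and 37.4%. A match of letters is a description and no evidence of binding.

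Depth differed widely between libraries. Split reads per library ran from 11377 (8w replicate 1) to 846374 (E18 replicate 1), and circles per library from 3931 to 42963. From 1 split read upward, a circle was taken as present. On chromosome 7, 59.5% of the circles of 8w replicate 1 and 40.0% of those of 3d replicate 1 rested on 1 read, against 6.02% to 19.2% in the other libraries. The 8w replicates 2 and 3 stood apart by their short circles, as described with the lengths. Summed over libraries, a chromosome 7 circle had a median of 10 split reads (quartiles 6 and 21), and 141 circles had 100 or more. Amplified reads are not independent molecules, so intervals cover counting error only.

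Chromosome 7 held close to the same share of the circles in all libraries. In E18 replicates 1 to 3 it held 5.08%, 4.90% and 5.49% of the library's circles (1793, 443 and 576 circles). Its share was 5.15%, 5.14% and 5.15% in 3d replicates 1 to 3 (1658, 1370 and 2214 circles), followed by 5.47%, 5.203% and 5.52% in 8w replicates 1 to 3 (215, 766 and 367 circles). The 8w values lay above all 3d values but overlapped the E18 values. Counting error was wider than most of these gaps, with Wilson 95% intervals of 4.95% to 5.37% in 3d replicate 3 and 4.80% to 6.22% in 8w replicate 1. The means were 5.16% ± 0.304 (SD, n = 3) at E18, 5.15% ± 0.00630 (n = 3) at 3d and 5.40% ± 0.171 (n = 3) at 8w. The exact permutation test over stages (F statistic, smallest possible p 0.00357) gave p = 0.361 and an adjusted p of 0.689 over 21 chromosomes. Without E18 replicate 3, the highest E18 value, the same test gave an exact p of 0.0393, so this library decides on which side of 0.05 the unadjusted p falls.

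**Figure D1:**
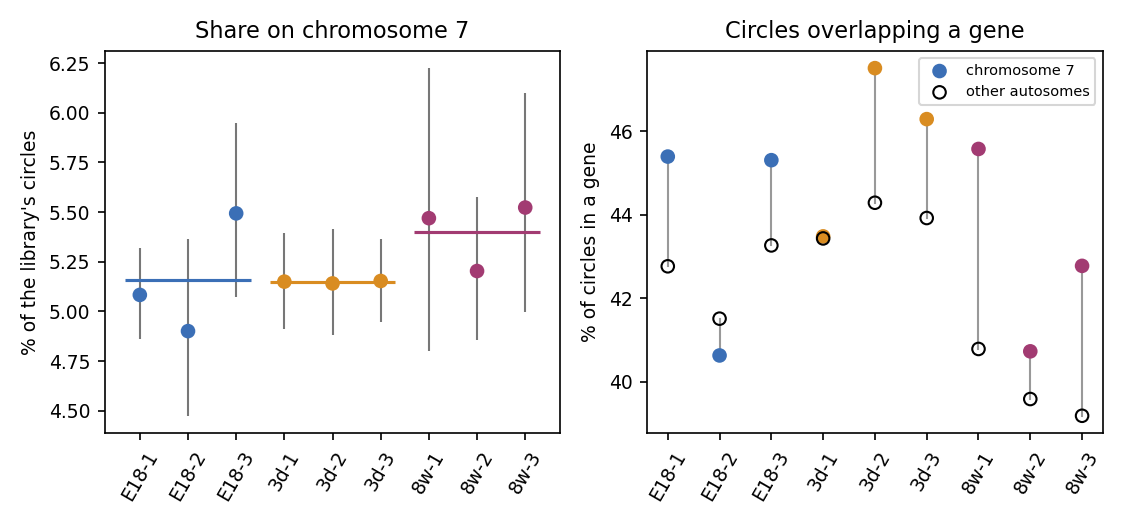
Left, share of each library's circles that lie on chromosome 7 (%), with Wilson 95% intervals as grey bars and the stage mean as a line. Right, share of circles overlapping a protein-coding gene (%), on chromosome 7 (filled) and on the other autosomes (open) of the same library. Neither vertical axis starts at 0. The chromosome 7 shares lie between 4.90% and 5.52%, and the filled point is above the open one in 8 of 9 libraries.

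The circles were sparse at the centromere end of chromosome 7. The first 35 Mb held 1108 circles, 31.7 per Mb, and the rest 6517 circles, 59.1 per Mb. The border at 35 Mb was chosen after the values were seen, and no test is given. On the other autosomes the first 35 Mb held 53.8 circles per Mb, from 48.6 to 57.6 on single chromosomes, and the rest 60.7. These 35 Mb are 24.1% of the length of chromosome 7 and held 14.5% of its circles and 36.01% of its genes (731 of 2030).

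All 6 full bins of 5 Mb within these 35 Mb lay below 260 circles, the 10th percentile of 436 full bins on the other autosomes, as did 5 of the 22 full bins beyond. Over all 28 full bins the median was 276.5 circles, against 306.5 on the other autosomes (quartiles 284 and 326, range 112 to 374). The emptiest full bins were 20 to 25 Mb (91 circles), 5 to 10 Mb (111) and 10 to 15 Mb (169). The bins 20 to 25 Mb and 5 to 10 Mb fell below every full bin of the other autosomes. The fullest were 70 to 75 Mb (363 circles), 110 to 115 Mb (360) and 130 to 135 Mb (349), which lay within the range of the other autosomes. The first 35 Mb held 15.4%, 12.9% and 14.9% of the chromosome 7 circles in E18 replicates 1 to 3, 15.6%, 14.01% and 13.6% in 3d replicates 1 to 3, and 22.8%, 15.1% and 18.5% in 8w replicates 1 to 3. All 9 values lay below the 24.1% of the length, but the Wilson 95% interval of 8w replicate 1, 17.7% to 28.8%, includes it, while those of the other 8 libraries lay below it. The means were 14.4% ± 1.37, 14.4% ± 1.04 and 18.8% ± 3.83 for E18, 3d and 8w (SD, n = 3 each), given with no test because the border was chosen after the values were seen. The 24.1% counts the length from base 1, although the first 5 Mb bin is not full, and the share of the sequenced length was not computed. The interval of 8w replicate 3 reached 22.8%. Without the first bin, the full bins of these 35 Mb held 33.6 circles per Mb.

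The emptiest full bins were rich in genes of clustered families, but not every sparse bin was. Of the 144 genes of the bin 20 to 25 Mb, 99 belonged to 7 clustered families, 86 of them vomeronasal receptors, which detect pheromones. In the bin 5 to 10 Mb 55 of 73 genes did, and in the bin 10 to 15 Mb 39 of 72. In the bin 70 to 75 Mb, the fullest, none of 8 genes did. The bins 30 to 35 Mb and 55 to 60 Mb were sparse too, with 202 and 211 circles. Yet they held only 7 family genes of 108 and 0 of 14. Beyond the 35 Mb border the bins with the olfactory receptor clusters, 100 to 105 Mb and 105 to 110 Mb, held 249 and 237 circles beside 110 and 83 clustered genes. Across the 28 full bins the number of circles ran against the number of clustered-family genes (Pearson r -0.65, Spearman rho -0.68) and against the number of all genes (r -0.46, rho -0.47). It rose with the percent of the bin covered by genes (r 0.56, rho 0.49). These are descriptions across bins of the same libraries, which are not independent replicates, and mappability of the bins was not analysed here.

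**Figure D2:**
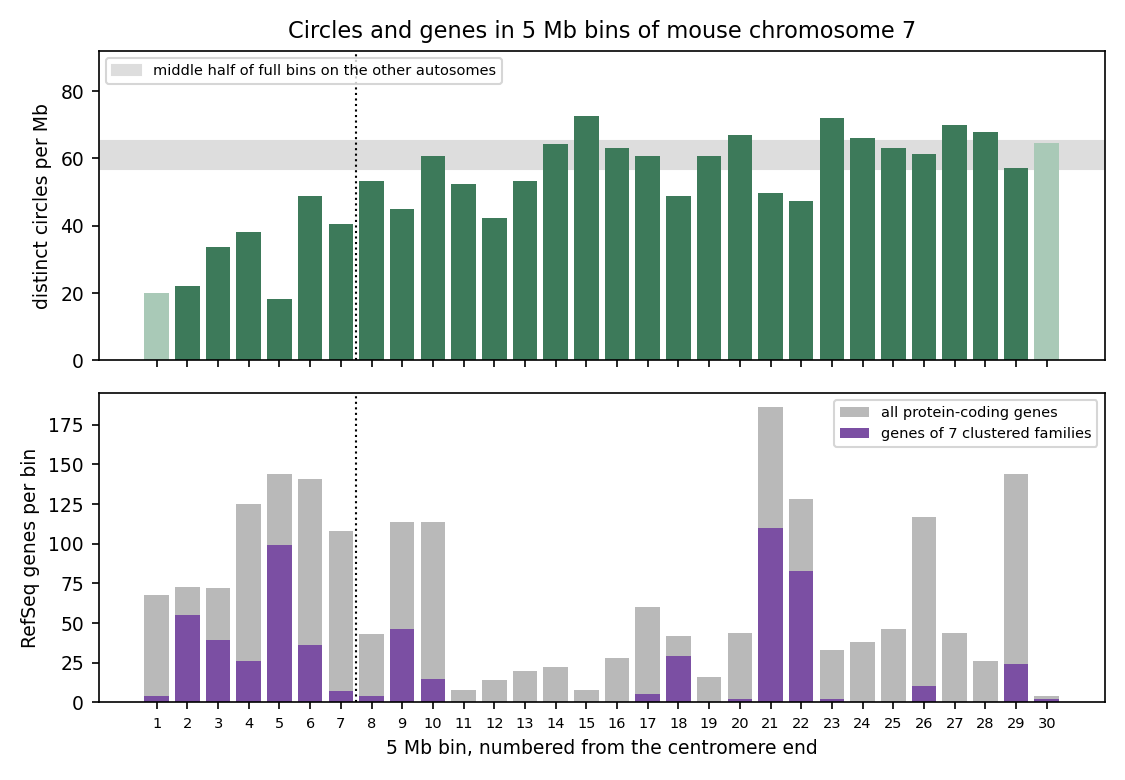
Top, distinct circles per Mb in the 5 Mb bins of chromosome 7, numbered from the centromere end, with pale bars for the 2 bins at the chromosome ends, which are not full, and a grey band for the quartile range of full bins on the other autosomes. Bottom, RefSeq protein-coding genes per bin, with the genes of 7 clustered families in purple. The dotted line marks the 35 Mb border: all bars to its left lie below the grey band, and bin 5, with 99 clustered genes, is the lowest.

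Few bins passed the test between stages. Circle numbers per 5 Mb bin were tested over the whole genome with edgeR's quasi-likelihood test and Benjamini-Hochberg adjustment, 535 bins in all and 30 on chromosome 7. Between 3d and E18, 0 of 30 bins passed an adjusted p of 0.05 (0% over the genome), 3 had an unadjusted p under 0.05 (5.42% over the genome), and DESeq2 also called 0. Between 8w and 3d, 1 of 30 passed (0.935% over the genome) and 9 had an unadjusted p under 0.05 (10.1%), 6 of them higher at 8w. Between 8w and E18, 1 of 30 passed (0.374% over the genome) and 6 had an unadjusted p under 0.05 (8.22%), 3 in each direction. Whether chromosome 7 differs from the genome in these counts was not tested.

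The bin 60 to 65 Mb was the call between 8w and 3d. It holds the imprinted gene Snrpn, which encodes an RNA splicing protein, and the genes Otud7a, Apba2 and Fam189a1. It held 0.152%, 0.139% and 0.140% of all circles in the 3d replicates (49, 37 and 60 circles) and 0.254%, 0.279% and 0.196% in the 8w replicates (10, 41 and 13 circles). All 8w values lay above all 3d values, while the E18 values of 0.164%, 0.210% and 0.238% (58, 19 and 25 circles) overlapped the 8w values. The log2 difference of 8w over 3d was 0.83 ± 0.23 (SE), with an adjusted p of 0.0422 in edgeR's test. The adjusted p was 0.249 with DESeq2 and 0.170 with a replicate block, and up to 0.549 with 1 library left out.

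The bin 85 to 90 Mb was the call between 8w and E18. It holds vomeronasal and olfactory receptor clusters beside Grm5, a glutamate receptor, the mitochondrial enzyme gene Me3, Tmem135 and Nox4, an NADPH oxidase that makes hydrogen peroxide in the heart. It held 0.139%, 0.122% and 0.143% of all circles in the E18 replicates (49, 11 and 15 circles), 0.143%, 0.169% and 0.158% in the 3d replicates (46, 45 and 68), followed by 0.229%, 0.238% and 0.346% for 8w replicates 1 to 3 (9, 35 and 23). The 8w values lay above all 6 others. The log2 difference of 8w over E18 was 0.98 ± 0.25 (SE), with an adjusted p of 0.0311 in edgeR's test, and that of 8w over 3d was 0.77 ± 0.22 with an adjusted p of 0.0525. The former was lost with DESeq2 (adjusted p 0.205), with a replicate block (0.246) and with 1 library left out (up to 0.373). In this bin 91.4% and 91.3% of the circles of 8w replicates 2 and 3 were under 250 bp, against 11.8% to 45.5% in the E18 and 3d libraries. The part of circle length in both calls was not tested.

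**Figure D3:**
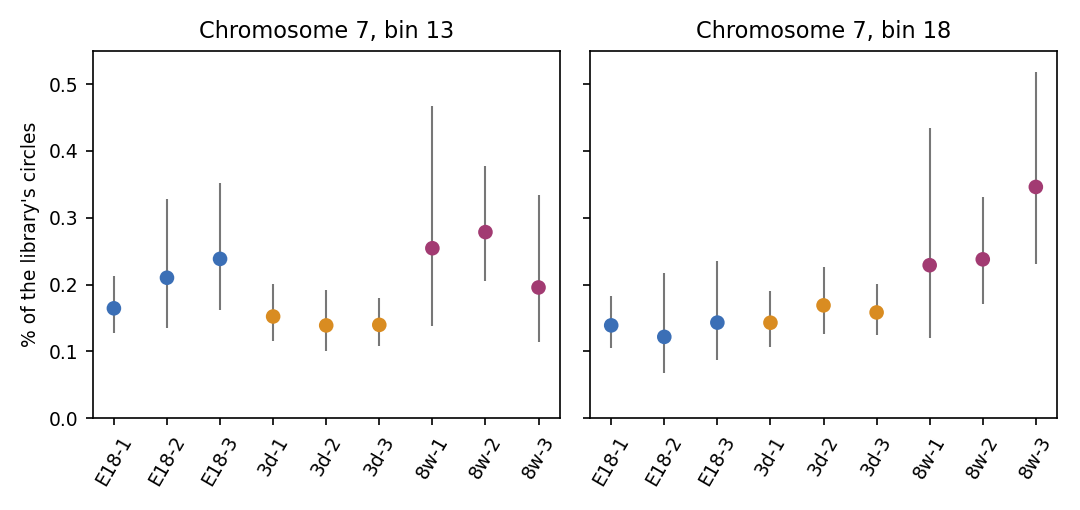
Share of each library's circles (%) in bin 13 (60 to 65 Mb) and bin 18 (85 to 90 Mb) of chromosome 7, with Wilson 95% intervals that cover counting error only. In bin 13 the 8w points lie above the 3d points and overlap the E18 points. In bin 18 they lie above all others, with 0.346% in 8w replicate 3 as the highest.

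The length of chromosome 7 circles changed at the adult stage, as it did on the other chromosomes. The median length was 370, 370 and 370.5 bp in E18 replicates 1 to 3, 380, 370.5 and 408 bp in the 3d replicates, and 343, 134 and 103 bp in the 8w replicates. The 8w values lay below all others, and 8w replicate 1 stood near the younger stages. The means were 370 ± 0.289, 386 ± 19.5 and 193 ± 131 bp (SD, n = 3 each). The exact permutation test over stages gave p = 0.00714 and an adjusted p of 0.0143 over 20 chromosomes, and all 20 passed. Circles under 250 bp made up 21.1%, 22.8% and 21.4% at E18, 19.1%, 27.4% and 8.08% at 3d, and 44.2%, 89.6% and 82.0% at 8w (exact permutation p = 0.025, adjusted p 0.025, all 20 chromosomes passing). That p rose to between 0.0607 and 0.0643 when any E18 library, 3d replicate 1 or 3d replicate 3 was left out, and to 0.0833 with a replicate block. Between pairs of stages the smallest p that 3 against 3 libraries allow is 0.1, and both contrasts of 8w reached it.

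At E18 and 3d, chromosome 7 circles had the ladder of lengths known for nucleosome-sized DNA. Beside the main peak, the stage means peaked at 200 to 220 bp (3.38% at E18 and 2.62% at 3d). A further peak lay at 580 to 600 bp at E18 (2.23%) and 560 to 580 bp at 3d (2.68%). The next lay at 720 to 740 bp at E18 (2.01%) and 740 to 760 bp at 3d (2.55%). The most common 20 bp length class was 360 to 380 bp in all E18 and 3d libraries, with 13.1% to 16.5% of their circles, and in 8w replicate 1, with 11.6%. It was 100 to 120 bp in 8w replicate 2 (16.6%) and 80 to 100 bp in 8w replicate 3 (37.3%). The share between 250 and 450 bp was 50.02% ± 2.77 at E18 (SD, n = 3), against 45.1% ± 0.592 at 3d (n = 3) and 17.2% ± 16.9 at 8w (n = 3). Circles over 650 bp made up 16.8% ± 0.686, 24.9% ± 8.61 and 7.71% ± 5.40. Within the same library the median length on chromosome 7 exceeded that on the other autosomes by 2.67 bp on average, in 7 of 9 libraries (exact sign-flip permutation p = 0.0352, adjusted p 0.594 over 19 autosomes), which does not pass.

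**Figure D4:**
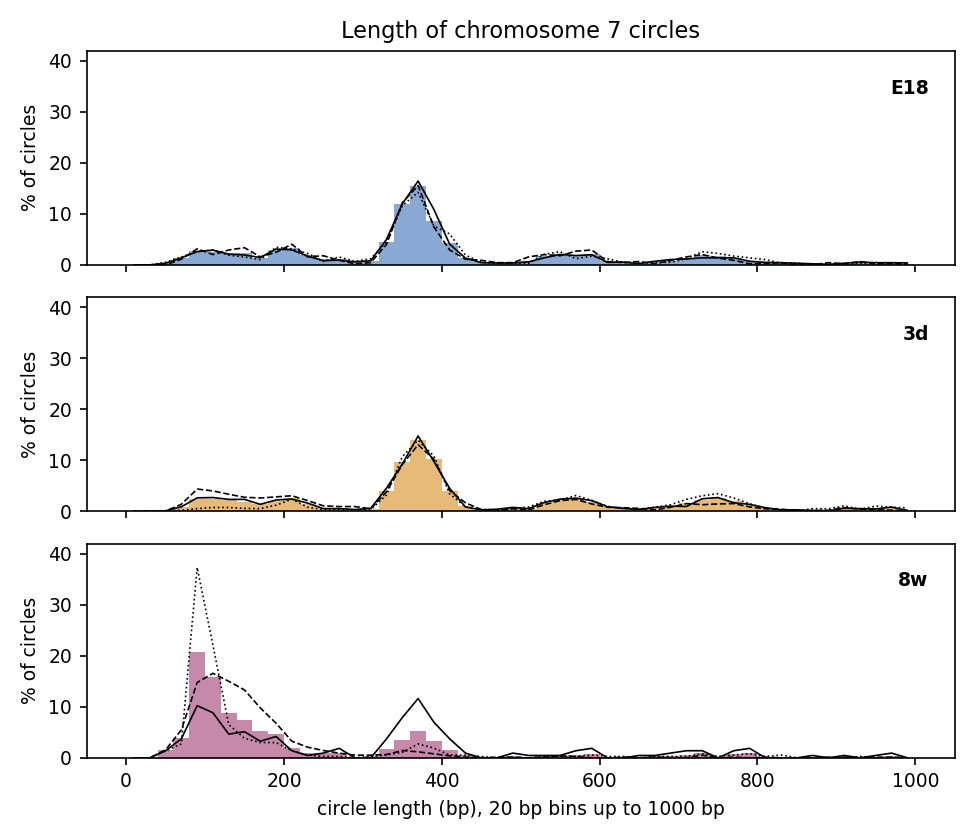
Length of chromosome 7 circles in 20 bp classes up to 1000 bp, as percent of the chromosome 7 circles of a library. Bars give the mean of 3 libraries of a stage, and the solid, dashed and dotted lines give replicates 1, 2 and 3. E18 and 3d peak at 360 to 380 bp in every library, and at 8w the peak moves to under 200 bp in replicates 2 and 3.

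Circles on chromosome 7 overlapped genes a little more often than circles elsewhere. A gene of the deposited table was overlapped by 45.4%, 40.6% and 45.3% of the chromosome 7 circles in the E18 replicates, by 43.5%, 47.5% and 46.3% in the 3d replicates, and by 45.6%, 40.7% and 42.8% in the 8w replicates. On the other autosomes of the same libraries the shares were 42.8%, 41.5% and 43.3%, then 43.4%, 44.3% and 43.9%, then 40.8%, 39.6% and 39.2%. Chromosome 7 was higher in 8 of 9 libraries, by 2.11 percentage points ± 1.77 (SD, n = 9), with E18 replicate 2 the exception. The exact sign-flip permutation test gave p = 0.0117 and an adjusted p of 0.0148 over 19 autosomes. This is not particular to chromosome 7, since 17 of 19 autosomes differed from the rest by this test and chromosome 7 ranked 7 from the top.

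With RefSeq gene spans, an alternative added after seeing the data, genes covered 40.2% of chromosome 7 and 40.0% of the other autosomes, and the difference in the share of circles overlapping a gene was 3.05 points, in 9 of 9 libraries (exact p = 0.00391, the smallest possible, and adjusted p 0.00675). With the gene spans of the deposited table, the difference fell from 2.11 to 1.53 points at 2 split reads or more. It then did not pass (exact sign-flip permutation p = 0.0859). Between stages the share in genes did not differ beyond the spread (means 43.8% ± 2.73, 45.8% ± 2.07 and 43.0% ± 2.43, n = 3 each, exact permutation p = 0.407, adjusted p 0.479).

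On chromosome 7, 892 of 2030 RefSeq genes were overlapped by a circle of at most 100 kb. Circle density was 61.1 distinct circles per Mb within genes and 46.6 per Mb outside them. Which genes had a circle followed their length: 24.9% of genes under 20 kb had 1 or more, 82.6% of genes of 20 to 100 kb, and all 122 genes over 100 kb. Genes of the clustered families were shorter, with a median of 1.04 kb against 14.8 kb for the others. Under 20 kb 14.8% of 527 family genes had a circle against 30.96% of 869 others, and between 20 and 100 kb 56.5% of 69 against 86.7% of 443. Neither difference was tested, nor was the part of length in it. Exon or intron was not determined, since no exon annotation was used here.

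Of the 7 families, the vomeronasal receptors had the lowest density, with 32 circles in 18 of 178 genes, or 21.8 per Mb. Vmn2r56, Vmn2r59, Vmn2r60, Vmn2r61 and Vmn2r75 had 3 distinct circles each, the most in the family. The Ceacam and Psg genes, which encode cell adhesion proteins and placental glycoproteins, had 29.7 per Mb (9 of 28 genes, Ceacam18 and Ceacam2 with 2 circles each). The kallikreins, secreted serine proteases, had 37.9 per Mb (6 of 26 genes, Klk1b16 with 3). The Cyp2 genes, detoxifying cytochrome P450 enzymes, had 46.2 per Mb (8 of 15 genes). The olfactory receptors had 54.1 per Mb, with 1 circle each in 24 of 239 genes. The zinc finger Zfp genes had 60.2 per Mb (45 of 93 genes), and Zfp536 alone, a long gene outside the clusters, held 31 of their 124 circles. The Mrgpr genes, receptors of sensory neurons, had 66.0 per Mb (9 of 19 genes, Mrgpra1 with 3). Together the families had 44.5 circles per Mb against 62.6 in all other genes, and 42.3 against 62.1 when a circle counted by its midpoint. Counting by any overlap raises the density of short genes more than that of long ones, and midpoint densities of single families were not computed. The order of the families thus depends in part on gene length. These densities rest on few circles in most families and carry no test.

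Genes with work in heart and muscle had 74.0 circles per Mb, with a circle in 23 of 40. Sox6, a transcription factor of muscle fibre type, had 40 distinct circles. Igf1r, the receptor of insulin-like growth factor, had 28, and Kcnq1, a potassium channel of cardiac repolarisation, had 24. The cardiac troponin gene Tnni3, the creatine kinase gene Ckm and 15 others had none, and all 17 of these genes were under 20 kb. Imprinted genes had 67.0 per Mb, with a circle in 17 of 25, led by Kcnq1 (24), Snrpn (22) and Usp29 (15). The 27 long genes all had circles, 65.6 per Mb, led by Dlg2 (140), Agbl1 (67) and Tenm4 (60). Counts for these lists are distinct circles over the RefSeq span of a gene. The lists were drawn up with earlier results known, so their order is a description.

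**Figure D5:**
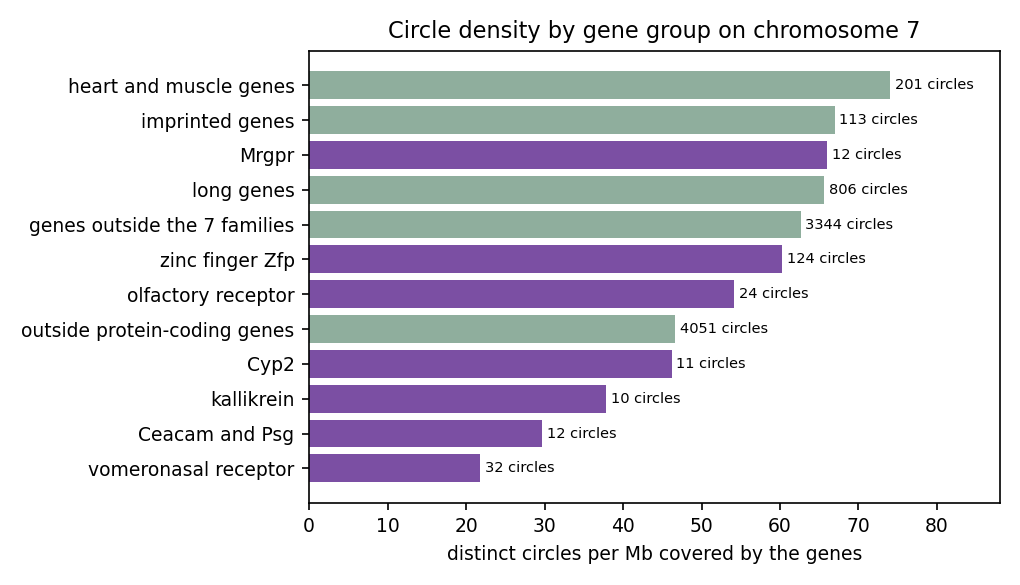
Distinct circles per Mb of sequence covered by each gene group on chromosome 7, with the number of circles beside each bar. A circle counts by any overlap, which raises the density of short genes more. Purple bars are the 7 clustered families. Vomeronasal receptors are lowest at 21.8 per Mb and heart and muscle genes highest at 74.0 per Mb.

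The genes with the most circles were long. The counts that follow use the spans of the deposited table. Counting a circle in each library that held it, Fgfr2, a fibroblast growth factor receptor, came first with 244 circles, 61 of them at E18, 156 at 3d and 27 at 8w. The deposited table gives Fgfr2 a span of 2961 kb, while RefSeq gives 104 kb, and only 9 of its 198 distinct circles touched the RefSeq span. Of 971 genes matched to RefSeq, 35 had a table span over 1.5 times the RefSeq span, and in 65 the RefSeq span was over 1.5 times the table span. Agbl1 is one of the latter (449 kb against 895 kb by RefSeq), and Dlg2 also had the shorter table span (1356 kb against 1973 kb). Dlg2, a synaptic scaffold gene, had 121 circles, and Nav2, which guides neurite growth, 85. Tenm4, an adhesion protein of neurons, had 68 and Nell1, a secreted factor in bone growth, 63. Dock1, which activates Rac in cell migration, had 56, Sox6 48, the deglutamylase gene Agbl1 41, Fam189a1 39 and the organic anion transporter gene Slco3a1 36.

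Per Mb of gene the leaders were short genes with few circles. Among genes of 20 kb or more, Coq7, an enzyme of ubiquinone synthesis, had 422 circles per Mb, from 3 distinct circles found 10 times. It was followed by 4933440M02Rik (348 per Mb, 7 circles), Kndc1 (342, 16 circles), the splicing factor gene Clasrp (342, 8), the kinase gene Vrk3 (309, 9) and Mki67 (301, 8), the proliferation marker. Vstm2b had 261 per Mb, the transcription elongation factor gene Supt5 252, Zfp939 242 and Klhl25 233. These values rest on 6 to 16 circles each. In Vstm2b 3 of 7 distinct circles, in Zfp939 3 of 5 and in Vrk3 1 of 5 were calls over 100 kb that overlap the gene. Without those calls, an alternative added after seeing the data, Vstm2b had 163 circles per Mb, Zfp939 121 and Vrk3 275, so that Vstm2b ranked 29 and Zfp939 100, outside the 10 densest.

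No chromosome 7 gene passed the test between stages. Numbers of circles per gene were tested with edgeR's quasi-likelihood test over 2174 genes, 93 on chromosome 7. Between 3d and E18, 0 of 93 passed (0% over all genes) and 3 had an unadjusted p under 0.05 (3.91% over all genes), all higher at 3d. Between 8w and 3d, 0 passed (0%) and 10 had an unadjusted p under 0.05 (12.1%), all lower at 8w. Between 8w and E18, 0 passed (0%) and 8 had an unadjusted p under 0.05 (7.04%), 7 of them lower at 8w. DESeq2 called 0 in each. Scaling changed the split. With library totals alone in place of TMM, 0 of 93 passed in edgeR's test in each contrast. Over all 2174 genes 0, 1 and 0 then passed for 3d over E18, 8w over 3d and 8w over E18. On chromosome 7, 4 (3 higher and 1 lower at 3d), 5 (2 higher and 3 lower at 8w) and 10 (4 higher and 6 lower at 8w) had an unadjusted p under 0.05. Over all genes these shares were 4.05%, 4.46% and 6.21%. On simulated counts for 8w over 3d over the same 2174 genes, the test recovered 0 of 100 genes changed 2-fold and 1 of 100 changed 4-fold, so differences of that size were not detectable at this depth.

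After scaling, all tested genes had a median log2 of 0.26 (3d over E18), -0.79 (8w over 3d) and -0.57 (8w over E18), so log2 values below are relative to these medians. With library totals alone the medians were 0.06, -0.06 and -0.05. The SE and p-values below belong to the fitted log2 before the median was subtracted. Tenm4 had 17, 5 and 3 circles in the E18 replicates, 11, 8 and 22 in those of 3d, and 0, 1 and 1 in those of 8w. Its log2 difference was -2.02 ± 0.84 (SE) for 8w over 3d, with an adjusted p of 0.386 in edgeR's test, and -2.23 ± 0.89 for 8w over E18, with an adjusted p of 0.621. Mgmt, a DNA repair enzyme that removes alkyl groups from guanine, had 1, 0 and 1 circles at E18, 5, 5 and 13 at 3d, and 2, 2 and 1 at 8w. Mgmt was named for having the smallest p of 3d over E18 on chromosome 7. Its raw counts at E18 and 3d did not overlap, and the share of all tested genes without such overlap was not counted. Its log2 difference of 3d over E18 was 2.35 ± 0.86 with an adjusted p of 0.757 in edgeR's test. Per 10000 circles summed over a stage, Mgmt had 0.365 at E18, 2.26 at 3d and 1.98 at 8w.

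Nell1 had 5, 4 and 0 circles at E18, 13, 10 and 16 at 3d, and 1, 10 and 4 at 8w, with a log2 of 1.11 ± 0.57 for 3d over E18 (adjusted p 0.989 in edgeR's test) and 1.95 ± 0.68 for 8w over E18 (adjusted p 0.621). Syt9, a calcium sensor of vesicle release, had 1, 0 and 1 at E18 and 6, 4 and 6 at 3d, with a log2 of 1.85 ± 0.94 (adjusted p 0.989 in edgeR's test). Ntrk3, Sergef, Mctp2 and Cers3 had 0 circles in all 8w libraries, so no fold is given for them. The denser short genes Vrk3, Clasrp, Supt5 and Zfp939 also had 0. The 8w libraries summed to 25297 circles against 101805 at 3d, and the share of all tested genes with 0 at 8w was not counted. Ntrk3, a neurotrophin receptor, had 4, 1 and 0 circles at E18 and 3, 7 and 8 at 3d (adjusted p 0.386 in edgeR's test of 8w over 3d). Sergef had 9, 2 and 0 at E18, and Mctp2, a membrane calcium-binding protein, 4, 1 and 3 (edgeR adjusted p 0.621 for both, 8w over E18). Under its table span Fgfr2 had a fitted log2 of -1.12 ± 0.41 (SE) for 8w over 3d, with an adjusted p of 0.386 in edgeR's test, which is -0.33 relative to all genes and 0.021 with no filter on low counts.

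The rule of smallest p in each direction also named the following genes. Cers3, a ceramide synthase, had 7 circles at E18 and 3 at 3d, Sergef 11 and 9, and the GABA receptor gene Gabrg3 15 and 14 (edgeR adjusted p 0.989 for each). Coq7 had 3 circles at 3d and 3 at 8w, Nox4 3 and 3, and the mitochondrial chaperone gene Clpb 5 and 4 (edgeR adjusted p 0.711, 0.711 and 0.721), while the libraries summed to 101805 circles at 3d and 25297 at 8w. Gsg1l, a subunit of glutamate receptors, had 3 circles at E18 and 6 at 8w (edgeR adjusted p 0.732).

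Most chromosome 7 circles were found in 1 library, 6032 of 7625 (79.1%, against 80.5% on the other autosomes). A further 1430 were in 2 libraries and 163 (2.14%, against 1.94%) in 3 or more. Of these 163, 129 included 3d replicate 1, and in 141 a single library held over 50% of the reads. By stage, 6624 circles were found at 1 stage, 958 at 2 and 43 at all 3.

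The circle in the most libraries was a 162 bp circle in Coq7 (chr7:118520790-118520951), found in 8 of 9. It had 5, 1 and 1 split reads in the E18 replicates, 2, 3 and 0 in those of 3d, and 2, 1 and 6 in those of 8w. Its 21 reads were thus spread over libraries. A 92 bp circle between Ccdc9 and Bbc3 (chr7:16299154-16299245) was in 6 libraries, but 31 of its 41 reads came from 3d replicate 2. A 563 bp circle in Kat8, a histone acetyltransferase gene (chr7:127914132-127914694), was in 5 libraries with 83 of 87 reads in E18 replicate 1. A 779 bp circle in Ldhc, a lactate dehydrogenase of the testis (chr7:46877102-46877880), was in 4 libraries with 305 of 308 reads in 3d replicate 1. A 658 bp circle 44.8 kb from Rgma (chr7:73330020-73330677) was in 4 libraries with 148 of 154 reads in E18 replicate 1. In these last 4 every other library that held the circle had 1 to 5 reads.

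The most abundant circles also had nearly all of their reads in 1 library. A 1155 bp circle between Vmn1r170 and Vmn1r171 (chr7:23617723-23618877) had 501 split reads, 500 of them in E18 replicate 1. A 664 bp circle between Vmn1r158 and Vmn1r159 (chr7:22828829-22829492) had 355, with 354 in E18 replicate 1. Both lie in the emptiest full bin. A 347 bp circle in Napa, a vesicle fusion protein gene (chr7:16109972-16110318), had 332 reads with 331 in 3d replicate 2, and a 358 bp circle in Prcp, a carboxypeptidase gene (chr7:92916497-92916854), had 332 with 331 in E18 replicate 1.

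Circles over 10 kb were rare on chromosome 7. There were 6, each over 100 kb and each in 1 library, with 3 at E18, 3 at 3d and none at 8w, while 523 circles (6.86%) exceeded 1 kb. The longest was called from 36803659 to 46750105 (9946447 bp) on 76 split reads in E18 replicate 1, and it would hold 217 whole RefSeq genes. The next ran from 127058351 to 135557843 on 43 reads in E18 replicate 1, with 111 whole RefSeq genes. A circle from 58402489 to 66107128 on 32 reads in 3d replicate 2 would hold 29 whole genes and 15 microRNA hairpins. A circle of 114631 bp (26056389 to 26171019) on 18 reads in 3d replicate 1 held the whole of Cyp2b13, a cytochrome P450 gene. The remaining 2, of 6434167 bp and 3928672 bp, had 6 and 4 reads. A split read joins both ends of such an interval, and whether the interval between them was circular was not tested.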

How the data were processed

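Circle-seq libraries of mouse heart were analysed from the authors' table of circles, 3 per stage. Per the submitters' processing notes, the tools were bedtools 2.27.1, SAMtools 1.9, BWA 0.7.12, edgeR (entry 0.6.9) and cutadapt 1.9.1, with mm10 and GRCm38 as builds. Per the file headers the circles were called with Circle-Map, whose version is not given in the sources used here. Deposited counts are split reads per circle and library. The log2 values that the authors deposited beside them, normalized with edgeR, were not used. Circle length and gene overlap in bp are the deposited columns, and the table lists 1 line for each circle and gene, so lines were reduced to distinct circles. Coordinates are printed from 1.

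A circle counted as present with 1 read. Circles were set in bins of 5 Mb by midpoint, in genes by any overlap, and RefSeq genes, start windows and sequences came from GRCm38.p6. Windows matched on both strands in all 171 overlapping pairs of opposite strand. Shares carry Wilson 95% intervals. One value per library was tested by exact permutation of stages or, against the other autosomes of the same library, by exact sign-flips (smallest p 0.00391), adjusted by Benjamini-Hochberg over chromosomes. Bins and genes with 10 circles or more over all libraries were tested in edgeR 4.0.16 by its quasi-likelihood method (TMM, column sums before the filter as library totals, 1 fit of all libraries), with DESeq2 1.42.0 (poscounts size factors) as an alternative. The tests were tried on simulated data. Replicates are biological per the labels, and p-values measure the spread between these 9 libraries. The labels do not say whether replicate numbers pair libraries, and the main tests used no such pairing. Correlations of deviations between same-numbered libraries ran from -0.0932 to 0.0779 over 9 pairs. Between libraries of different number they ran from -0.0704 to 0.100 over 18 pairs. Such values cannot settle whether libraries were paired.

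The alternatives were other scalings and filters, shifted bins, 2 or 5 reads for presence, RefSeq genes, leaving out circles over 100 kb, a replicate block and leaving out each library. Genes named are the 10 with the most circles, among those of 20 kb or more the 10 densest in circles, the 3 with the smallest p in each direction and comparison, and the leading members of each list. Circles named are those in the most libraries, with the most reads and the longest. The chromosome, lists and tests were chosen with earlier results of these data known. Scripts ran in R 4.3.3 and Python 3.11.15 with SciPy 1.17.1, pandas 2.3.3, matplotlib 3.10.9 and NumPy 2.4.6.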

Additional observations from a re-analysis of the deposited data

Results flagged for a closer look

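The share of circles under 250 bp, set against the other autosomes of the same library, differed in sign between E18 and 3d, with very small differences in some libraries. On chromosome 7 it was lower than on the other autosomes in all 3 E18 libraries, by -0.155, -2.57 and -0.471 percentage points, and higher in all 3 3d libraries, by 1.59, 0.0676 and 0.0732 points. The difference of E18 minus 3d was -1.65 points. This pair of stages was not tested by itself, and the exact permutation test over all 3 stages gave p = 0.257.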

How the results depend on the processing

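Depth limits these results most in the 8w libraries, with 3931 to 14721 circles. The share of circles on chromosome 7, 3d minus E18, was -0.0111 points and turned to 0.0082 with 2 reads or more, 0.106 with 5 reads or more and 0.0629 as a share of split reads, and ran from -0.140 to 0.156 with 1 library left out. The exact p of the share over stages ran from 0.0393 to 0.564 with 1 library left out. For circles under 250 bp the exact p over stages ran from 0.025 to 0.0643 with 1 library left out and was 0.0833 with the replicate block, and the difference of 3d minus E18 ran from -8.16 to 1.48 points. The share in genes among circles of 250 to 450 bp was higher at 8w than at 3d by 1.88 points and than at E18 by 2.74 points, the reverse of all lengths, and over all lengths 8w minus E18 ran from -2.33 to 0.399 points with 1 library left out. The median length on chromosome 7 minus that on the other autosomes was 3.61 bp with 5 reads or more (exact p = 0.109) and 1.5 to 3.12 bp with 1 library left out. The share in genes minus that on the other autosomes fell to 1.53 points with 2 reads or more (exact p = 0.0859).

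The count of chromosome 7 bins called between 8w and 3d was 0 with library totals alone, DESeq2, the replicate block, 2 reads or more and bins shifted by 2.5 Mb, and 0 to 1 with 1 library left out (0 without any of the 3d libraries, 8w replicate 1 or 8w replicate 2). Between 8w and E18 it was 0 with DESeq2, the replicate block, 2 reads or more and shifted bins, and 0 to 1 with 1 library left out (0 without any E18 library, 3d replicate 1, 8w replicate 2 or 8w replicate 3). Shifted bins give no value for a single named bin. The counts of chromosome 7 genes called were 0 under every alternative that was run. Among named genes, taken relative to the median of all genes in the same fit, Fgfr2 8w over 3d turned from a log2 of -0.33 to 0.021 with no filter, and no other direction turned. The replicate block changed no other call. The causes were not tested.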

Other observations

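The chromosome 7 circles carried 5.19% ± 0.0759 of the split reads at E18, 5.25% ± 0.199 at 3d and 5.42% ± 0.173 at 8w (SD, n = 3 each), close to their share of circles. The 3 longest calls would also hold microRNA hairpins listed by RefSeq, 7, 4 and 15 of them, and no hairpin of chromosome 7 was overlapped by a circle of at most 100 kb.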
